A study of Bos taurus with 6 samples.

Results

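The fibroblast growth factor (FGF) genes examined here were 6 ligands, FGF1, FGF2, FGF7, FGF9, FGF10 and FGF18, and the 4 receptor tyrosine kinase genes FGFR1, FGFR2, FGFR3 and FGFR4. They were found by their symbol in the annotation of the array, which gave 12 probes carrying only that symbol, 8 for ligands and 4 for receptors, out of 24415 probes. FGF9 and FGF10 had 2 probes each. On the level of genes these were 10 of 18010 genes with a probe of their own. With LY294002, FGFR1 and FGFR2 rose, FGFR3 and FGFR4 did not pass the test, and none of the 6 ligands did. The call of FGFR2 was lost when most of the single arrays were left out, while that of FGFR1 held without any of them.

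FGFs are secreted factors that bind their receptors together with heparan sulfate. The activated receptor phosphorylates the adaptor FRS2, from which GRB2 and SOS lead to RAS and ERK, and GAB1 leads to PI3K and AKT. Sprouty and SPRED proteins and the ERK phosphatase DUSP6 are induced by this signaling and dampen it. In the ovarian follicle, FGF7 is a product of theca cells and, with FGF10, acts on granulosa cells through a splice form of FGFR2. FGF2 is a mitogen of granulosa cells, and in cattle FGF9 and FGF18 are known to lower steroid production by these cells.

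Bovine granulosa cells from follicles of 2 to 6 mm, obtained from abattoir ovaries and stored frozen, were kept in medium containing FSH (20 ng/mL) and IGF1 (50 ng/mL). On day 2 they received either 50 μM LY294002, a PI3K inhibitor that is also known to act on mTOR and casein kinase 2, or DMSO as the vehicle, when most of the medium was exchanged for medium without both hormones. After 2 h most of the medium was exchanged again, for medium with FSH and IGF1, so the inhibitor was diluted and not fully removed, and RNA was taken on day 4. RNA of 3 DMSO and 3 LY294002 cultures was hybridized to 6 Bovine Gene 1.0 ST arrays. No FGF was added, and no inhibitor of FGF receptors was used. The study describes replicates as cultures of cells collected on different days, but no day is tied to an array, so the p-values measure the spread between these arrays.

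The array medians lay between 4.98 and 5.01 (log2 signal), no value was missing, and 629 probes were called higher and 825 lower. Of the 9 granulosa markers, INHA, INHBA and FST had mean log2 signals between 10.22 and 11.70 in both groups. CYP19A1 fell (log2 change of LY294002 against DMSO -1.97, limma adjusted p = 0.000243). FOXL2 (-0.75, adjusted p = 0.00394), AMH (-0.61, adjusted p = 0.00269) and AMHR2 (-0.72, adjusted p = 0.00319) fell as well. FSHR (0.25, adjusted p = 0.125) and INHBB (-0.04, adjusted p = 0.858) were not called. CYP17A1, the androgen-producing enzyme of theca cells, lay at 3.02 ± 0.09 in DMSO (SD, n = 3). Of the 6 theca markers 0 rose and 1 fell, INSL3, a theca hormone, which lay at 8.22 ± 0.23 in DMSO and at 7.17 ± 0.22 in LY294002 (SD, n = 3, limma adjusted p = 0.00763). NR2F2, a nuclear receptor of theca and stroma, lay at 7.12 in DMSO and 6.93 in LY294002. LHCGR had a log2 change of -0.53 (adjusted p = 0.0552) and CYP17A1 one of -0.04 (adjusted p = 0.872). PTCH1 went the other way (0.37, adjusted p = 0.0278, under the fold threshold), and GLI1 had a log2 change of 0.06 (adjusted p = 0.786). The summed linear signal of the 6 markers, in which INSL3 weighs most, ran from 514 to 600.6 in DMSO and from 389.3 to 425.4 in LY294002. The stromal markers LUM and DCN were bright as well, at 11.94 and 10.19 in DMSO. Signals of different probes are not set against each other, since their binding differs. In bulk RNA, fewer cells of a type and less RNA per cell cannot be told apart.

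FGFR1 encodes a main receptor of FGF2. Its log2 signals were 7.91, 7.99 and 8.07 in DMSO and 8.75, 8.65 and 8.75 in LY294002 (probe 12824808). Every LY294002 array lay above every DMSO array, and the gap between the groups was wider than the range within either. FGFR1 rose 1.65-fold, a log2 change (mean of LY294002 minus mean of DMSO) of 0.73 (SE 0.07, 95% interval 0.56 to 0.90, limma adjusted p = 0.00191). The words rose and fell are kept for genes past both thresholds of the study's methods, an adjusted p below 0.05 over all probes and a change of 1.4-fold or more.

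FGFR2, the receptor of FGF7 and FGF10 in its epithelial splice form, had log2 signals of 5.66, 5.96 and 6.07 in DMSO and of 6.57, 6.56 and 6.27 in LY294002 (probe 12821546). The groups did not overlap, but LY294002 replicate 3 came closer to the highest DMSO array than to the other LY294002 arrays, and the spread within each group was larger than for FGFR1. FGFR2 rose 1.48-fold, a log2 change of 0.57 (SE 0.13, 95% interval 0.25 to 0.89, adjusted p = 0.0386). Its call was lost without DMSO replicate 1, 2 or 3 (adjusted p = 0.0797, 0.0876 and 0.0524) and without LY294002 replicate 1 or 2 (0.111 and 0.118), and also with a plain linear model per probe without moderation of the variances (0.115). The call of FGFR1 held in each of these fits.

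FGFR3 and FGFR4, which favor FGF9, FGF18 and, for FGFR4, the endocrine FGF19, are receptors whose signals changed little between the groups. FGFR3 read 4.78, 4.56 and 4.80 in DMSO and 4.91, 4.83 and 4.73 in LY294002, a log2 change of 0.11 (SE 0.09, 95% interval -0.11 to 0.33, adjusted p = 0.51). FGFR4 read 4.82, 4.83 and 4.75 in DMSO and 4.79, 4.70 and 4.76 in LY294002, a log2 change of -0.05 (SE 0.06, 95% interval -0.20 to 0.10, adjusted p = 0.673). For both the groups overlapped, and the intervals stayed inside 1.4-fold in either direction. Each was brighter than only 47.1% of all probes, and without a detection call their presence was not measured.

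Taken over the receptors, 2 of 4 rose and 0 fell, where 2.99% of all genes were called higher and 3.99% lower. The median log2 change of the 4 receptors was 0.34, against 0.01 over all genes. It lay between FGFR1 and FGFR2 (0.73 and 0.57) and FGFR3 and FGFR4 (0.11 and -0.05), and no receptor was near it. Whether the receptors changed unequally was tested on their log2 ratio within each array, over the 6 pairs of receptors. FGFR1 gained 0.62 on FGFR3 and 0.78 on FGFR4, and FGFR2 gained 0.46 and 0.62 on them, each with ratios that did not overlap between the groups. The two-sided exact permutation test gave p = 0.1 for each of these 4 pairs, the smallest value that 3 arrays against 3 allow, and 0.15 after adjustment over the 6 pairs. The test could therefore not reach 0.05 and does not decide whether the changes were unequal. Each of these 4 pairs sets a called receptor against an uncalled one, so their separation is not independent of the calls. The difference between FGFR1 and FGFR2 was 0.16, with overlapping ratios (exact permutation test, p = 0.4). A probe sums the signal of all transcripts of its gene, so the splice forms of FGFR1, FGFR2 and FGFR3, which decide ligand preference, were not resolved.

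**Figure D1:**
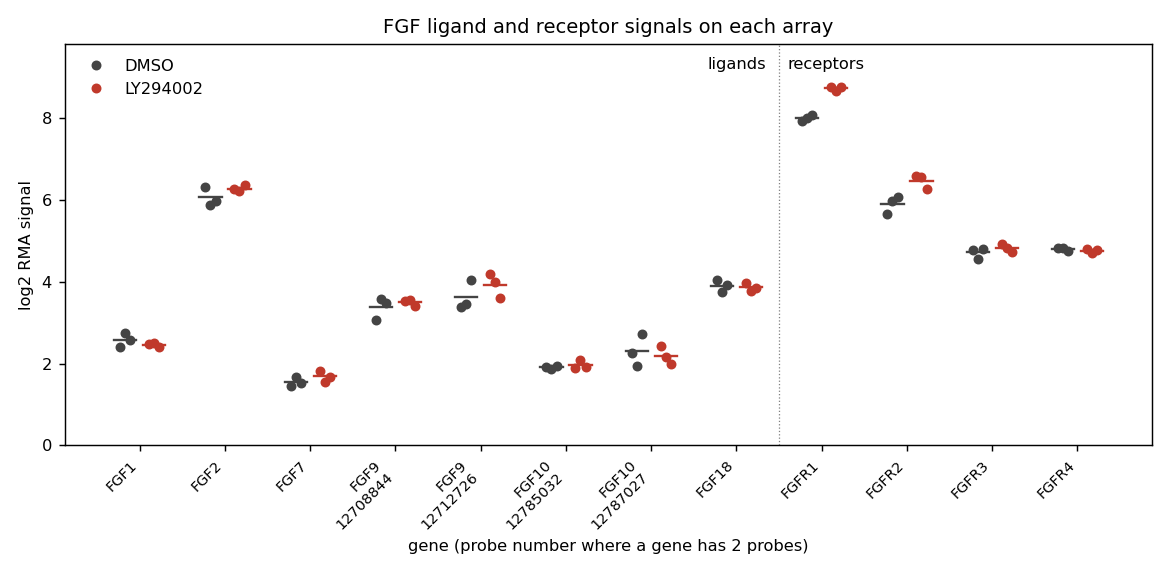
Log2 RMA signal (y axis) of each ligand and receptor probe (x axis) on the 3 DMSO arrays (grey) and the 3 LY294002 arrays (red), with bars at the group means. The groups lie apart for FGFR1 and FGFR2, while those of the 8 ligand probes overlap. Heights of different probes cannot be compared.

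The stromal markers moved in part with the receptors. PDGFRA, a receptor of mesenchymal cells, rose (log2 change 0.69, adjusted p = 0.00117), as did the collagen gene COL1A2 (0.60, adjusted p = 0.0064). DCN had a log2 change of -0.29 (adjusted p = 0.0454, under the fold threshold) and LUM one of -0.05 (adjusted p = 0.659). The collagen genes COL1A1 and COL3A1 had log2 changes of -0.17 and -0.02 (adjusted p = 0.126 and 0.906). Over the whole list of 6 stromal markers 2 rose and 0 fell, with a median log2 change of -0.035. Their summed linear signal ran from 7426 to 7775 in DMSO and from 7792 to 8301 in LY294002. Only PDGFRA and COL1A2 had a positive log2 change, so the higher sum is no gain of the list as a whole. Of 9 granulosa markers 0 rose and 4 fell, namely CYP19A1, FOXL2, AMH and AMHR2. Their summed signal, in which the uncalled INHBA weighs most, was 7435 to 8061 in DMSO and 7175 to 7545 in LY294002. The part of stromal and granulosa cells in the rise of FGFR1 and FGFR2 was not tested.

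FGF2 lacks a classical signal peptide and leaves cells by another route. Its log2 signals were 6.32, 5.87 and 5.97 in DMSO and 6.25, 6.20 and 6.36 in LY294002 (probe 12745287). DMSO replicate 1 reached the level of the LY294002 arrays, so the groups overlapped, and the log2 change was 0.22 (SE 0.13, 95% interval -0.08 to 0.52, adjusted p = 0.332). Without DMSO replicate 1 it was 0.35 (adjusted p = 0.0639) and without DMSO replicate 2 it was 0.13 (adjusted p = 0.613). A second probe that lists FGF2 also lists NUDT6, the gene that overlaps FGF2 in antisense, and could not be assigned to either. It read 6.53, 6.20 and 6.14 in DMSO and 6.15, 6.10 and 5.92 in LY294002, a log2 change of -0.23 (adjusted p = 0.286), opposite in sign to the probe of FGF2 alone. Neither passed the test.

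FGF9, which granulosa cells themselves can make, was read by 2 probes. The brighter one (probe 12712726) gave 3.39, 3.45 and 4.04 in DMSO and 4.19, 3.98 and 3.59 in LY294002. One DMSO array and one LY294002 array crossed over, and the log2 change of 0.29 (SE 0.22, adjusted p = 0.462) had a 95% interval from -0.23 to 0.82. Leaving out single arrays moved it from 0.16 (without LY294002 replicate 1) to 0.50 (without DMSO replicate 3, adjusted p = 0.167). The other probe (12708844) gave 3.06, 3.58 and 3.47 against 3.52, 3.55 and 3.41, a log2 change of 0.12 (95% interval -0.21 to 0.46, adjusted p = 0.64). Both estimates pointed upward, both fell short of the spread between arrays, and for the brighter probe a change of 1.4-fold upward remained within the interval.

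FGF18 is bound by FGFR3 and FGFR4. Its log2 signals were 4.05, 3.75 and 3.91 in DMSO and 3.97, 3.76 and 3.84 in LY294002, with the ranges nested (log2 change -0.05, 95% interval -0.28 to 0.19, adjusted p = 0.823). FGF1, a ligand of all 4 receptors, read 2.41, 2.74 and 2.58 in DMSO and 2.48, 2.49 and 2.40 in LY294002 (log2 change -0.12, 95% interval -0.35 to 0.11, adjusted p = 0.49). Both overlapped between the groups.

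FGF7 and FGF10 are the paracrine ligands of FGFR2. FGF7 read 1.46, 1.66 and 1.52 in DMSO and 1.82, 1.55 and 1.68 in LY294002 (log2 change 0.14, 95% interval -0.09 to 0.36, adjusted p = 0.42). FGF10 read 2.26, 1.93 and 2.73 against 2.42, 2.16 and 1.98 on its brighter probe 12787027 (log2 change -0.12, 95% interval -0.63 to 0.39, adjusted p = 0.783). On probe 12785032 it read 1.92, 1.87 and 1.95 against 1.90, 2.09 and 1.91 (0.05, 95% interval -0.13 to 0.23, adjusted p = 0.715). The sign of the FGF10 change thus differed between its probes, and without DMSO replicate 3 that of the brighter probe turned to 0.09.

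Of the 8 ligand probes, 4, namely those of FGF1, FGF7 and FGF10, were among the dimmest 25% of all probes by mean signal. By mean signal 7 of the 8, all but that of FGF2, lay below the median probe. The deposited values carry no detection call, so whether any of these transcripts was present was not measured. A change of a transcript at background level would not show. By limma 0 of the 6 ligand genes passed the thresholds, a count of little weight where 2.99% of all genes were called higher and 3.99% lower. Of the ligand genes 0 had an unadjusted p under 0.05, and 0 passed with the plain linear model. The shares of all genes in these 2 counts were not computed. At an adjusted p under 0.05 and any fold there were 2828 of 18010 genes and 0 ligand genes. Their median log2 change was 0.05, with a range of -0.12 to 0.29. For 5 of the 8 probes the 95% interval stayed inside 1.4-fold. For the other 3, those of FGF2, FGF9 (probe 12712726) and FGF10 (probe 12787027), it did not, so a change of that size lay within the interval. Over ligands and receptors, the 3 LY294002 values lay outside the DMSO range for 2 of 12 probes (16.7%), against 32.7% of all probes.

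**Figure D2:**
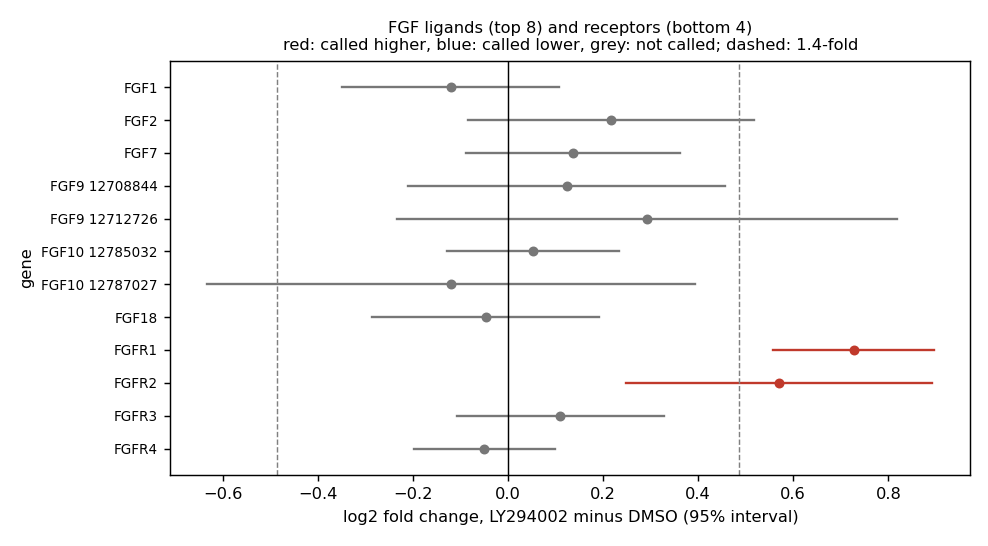
Log2 fold change of LY294002 minus DMSO (x axis) with its 95% interval from limma for each ligand and receptor probe (y axis), with dashed lines at 1.4-fold. The points of FGFR1 (0.73) and FGFR2 (0.57) lie past the upper line, and the intervals of the ligand probes all include 0.

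Further genes of the pathway were taken from 6 lists of 63 genes, 59 of which had a probe of their own. Of these 59, 10 rose, 2 fell and 47 did not pass both thresholds, beside 2.99% of all genes called higher and 3.99% called lower. These shares also stand behind the counts of called genes in each list that follow. For counts at an unadjusted p or with the plain linear model, no share over all genes was computed, so they carry little weight. The calls lay mostly in the feedback inhibitors and the genes induced by FGF and ERK. Both groups received FSH and IGF1 and no added FGF. Whether these genes reflect FGF signaling here was not tested.

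Of the 12 other secreted FGFs, 0 were called, with 3 at an unadjusted p under 0.05 and 0 called with the plain linear model. FGF4 read 4.55, 4.39 and 4.34 in DMSO and 4.60, 5.01 and 4.95 in LY294002 (log2 change 0.43, adjusted p = 0.0728). FGF5 had a log2 change of -0.19 (adjusted p = 0.0976) and the metabolic hormone gene FGF21 one of 0.17 (adjusted p = 0.147). FGF8, an oocyte factor in the mouse, had one of 0.12 (adjusted p = 0.454). The groups of FGF4, FGF5 and FGF21 did not overlap, while their sizes stayed under 1.4-fold.

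The 4 FGF homologous factors are not secreted and bind sodium channels inside the cell. None was called, all 4 had an unadjusted p under 0.05, and none was called with the plain linear model. At an adjusted p under 0.05 and any fold there were 2 of the 4, beside 2828 of 18010 genes. FGF12 read 6.93, 6.92 and 6.94 in DMSO and 6.42, 6.47 and 6.56 in LY294002 (log2 change -0.45, SE 0.06, adjusted p = 0.00724), just under the fold threshold. FGF13 moved the other way, from 3.51, 3.29 and 3.36 to 4.05, 3.76 and 3.71 (0.45, SE 0.11, adjusted p = 0.044), also just under it. FGF11 (-0.49, adjusted p = 0.18) exceeded 1.4-fold but missed the p threshold, and FGF14 had a log2 change of -0.34 (adjusted p = 0.155).

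Among 9 measured co-receptors, decoys and binding proteins, 1 rose. FLRT3, a membrane protein that binds FGF receptors and furthers their signaling, read 7.36, 7.24 and 7.40 in DMSO and 8.02, 7.93 and 8.07 in LY294002. It rose 1.59-fold (log2 change 0.67, SE 0.07, adjusted p = 0.00283), while its relatives FLRT1 and FLRT2 had log2 changes of 0.05 and 0.14 (adjusted p = 0.787 and 0.288). FGFRL1, a receptor-like protein without a kinase domain, read 6.24, 6.20 and 6.28 against 6.56, 6.55 and 6.71 (0.37, adjusted p = 0.0201), under the fold threshold. KL and KLB, the klotho co-receptors of endocrine FGFs, had log2 changes of -0.20 and -0.08 (adjusted p = 0.43 and 0.831). ANOS1, a heparan sulfate-binding modulator, had one of 0.20 (adjusted p = 0.176).

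Of 16 measured adaptors and kinases, 1 rose and 1 fell. GAB1, the docking protein through which FGF receptors recruit PI3K, read 8.07, 8.10 and 7.93 in DMSO and 7.55, 7.46 and 7.49 in LY294002. It fell by 0.53 on the log2 scale (SE 0.07, adjusted p = 0.00589). FRS3, the less widely expressed relative of FRS2, read 4.80, 5.17 and 5.18 against 5.60, 5.55 and 5.60 (log2 change 0.53, SE 0.11, adjusted p = 0.0272). Its DMSO replicate 1 lay apart from the other DMSO arrays. The call of FRS3 was lost with the plain linear model (adjusted p = 0.0835) and without DMSO replicate 2 or LY294002 replicate 1, 2 or 3 (0.0503 to 0.0875). Without DMSO replicate 1 it stayed under 1.4-fold (0.41, adjusted p = 0.0252).

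FRS2 itself, the main docking protein, had a log2 change of -0.05 (adjusted p = 0.659). SOS2, a RAS activator, had one of 0.36 (adjusted p = 0.012) and SHC1, an adaptor, one of -0.33 (adjusted p = 0.0164), both under the fold threshold. PLCG1, the phospholipase that binds activated FGF receptors, had one of 0.26 (adjusted p = 0.0524). The median over the list was 0.02.

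Among the feedback inhibitors, of 11 genes 5 rose and 1 fell, with a median log2 change of 0.46. DUSP6, which removes phosphate from ERK, read 6.24, 6.22 and 6.38 in DMSO and 8.0, 7.92 and 7.93 in LY294002, a 3.18-fold rise (log2 change 1.67, SE 0.07, adjusted p = 0.00017). DUSP5, a nuclear ERK phosphatase, read 5.77, 5.98 and 6.18 against 6.80, 6.64 and 6.67 and rose 1.65-fold (0.73, adjusted p = 0.00996). Both phosphatases separated the groups on every array, and the gap of DUSP6 was many times the spread within a group. DUSP4, a nuclear phosphatase of the same family, had a log2 change of 0.07 (adjusted p = 0.808).

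The Sprouty genes split. SPRY4 read 4.89, 5.18 and 5.02 in DMSO and 6.03, 6.35 and 6.20 in LY294002 and rose 2.24-fold (log2 change 1.16, SE 0.11, adjusted p = 0.00183). SPRY2 read 6.51, 6.66 and 6.73 against 7.54, 7.57 and 7.49 and rose 1.87-fold (0.90, SE 0.08, adjusted p = 0.00132). SPRY1 rose least, from 5.57, 5.55 and 5.69 to 5.99, 6.22 and 6.20 (0.53, SE 0.09, adjusted p = 0.0113).

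SPRY3 went the opposite way from its relatives. Its log2 signals were 7.20, 7.48 and 7.22 in DMSO and 6.26, 6.22 and 5.86 in LY294002, so it fell by 1.19 on the log2 scale (SE 0.13, 95% interval -1.51 to -0.87, adjusted p = 0.00313). The SPRED genes, relatives of Sprouty, stayed under 1.4-fold. SPRED2 had a log2 change of 0.46 (adjusted p = 0.016), SPRED1 one of 0.38 (adjusted p = 0.0203) and SPRED3 one of 0.01 (adjusted p = 0.922). IL17RD, a membrane inhibitor of FGF signaling, had one of 0.22 (adjusted p = 0.161). The study's own lists of genes regulated on these arrays hold FGFR1, SPRY2, SPRY3, DUSP6, EGR1 and ETV5, so their direction is no independent evidence. The study describes its gene lists as genes regulated both by LY294002 and by an ERK inhibitor in an earlier experiment. A gene absent from them may still have been found regulated by LY294002.

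Of 7 transcription factor and cell cycle genes known to be induced by FGF and ERK, 3 rose and 0 fell, with a median log2 change of 0.47. EGR1, an immediate early factor, read 8.25, 8.45 and 8.43 in DMSO and 9.38, 9.42 and 9.38 in LY294002 (log2 change 1.02, SE 0.07, adjusted p = 0.000984). ETV5, an ETS factor used as a readout of FGF signaling in embryos, read 3.86, 4.16 and 3.71 against 4.67, 4.76 and 5.10 (0.93, SE 0.16, adjusted p = 0.0123). CCND1, cyclin D1, read 6.28, 6.49 and 6.33 against 7.11, 7.01 and 6.95 (0.66, SE 0.08, adjusted p = 0.00456). On each of these genes the groups lay apart, and the call of ETV5 was lost with the plain linear model (adjusted p = 0.0588).

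The other ETS factors of the list did not follow ETV5. ETV4 had a log2 change of 0.08 (adjusted p = 0.583) and ETV1 one of -0.09 (adjusted p = 0.395). FOS read 6.69, 7.13 and 7.18 in DMSO and 7.51, 7.44 and 7.46 in LY294002 (0.47, adjusted p = 0.0686), with DMSO replicate 1 low, and MYC had a log2 change of 0.27 (adjusted p = 0.0378), under the fold threshold.

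**Figure D3:**
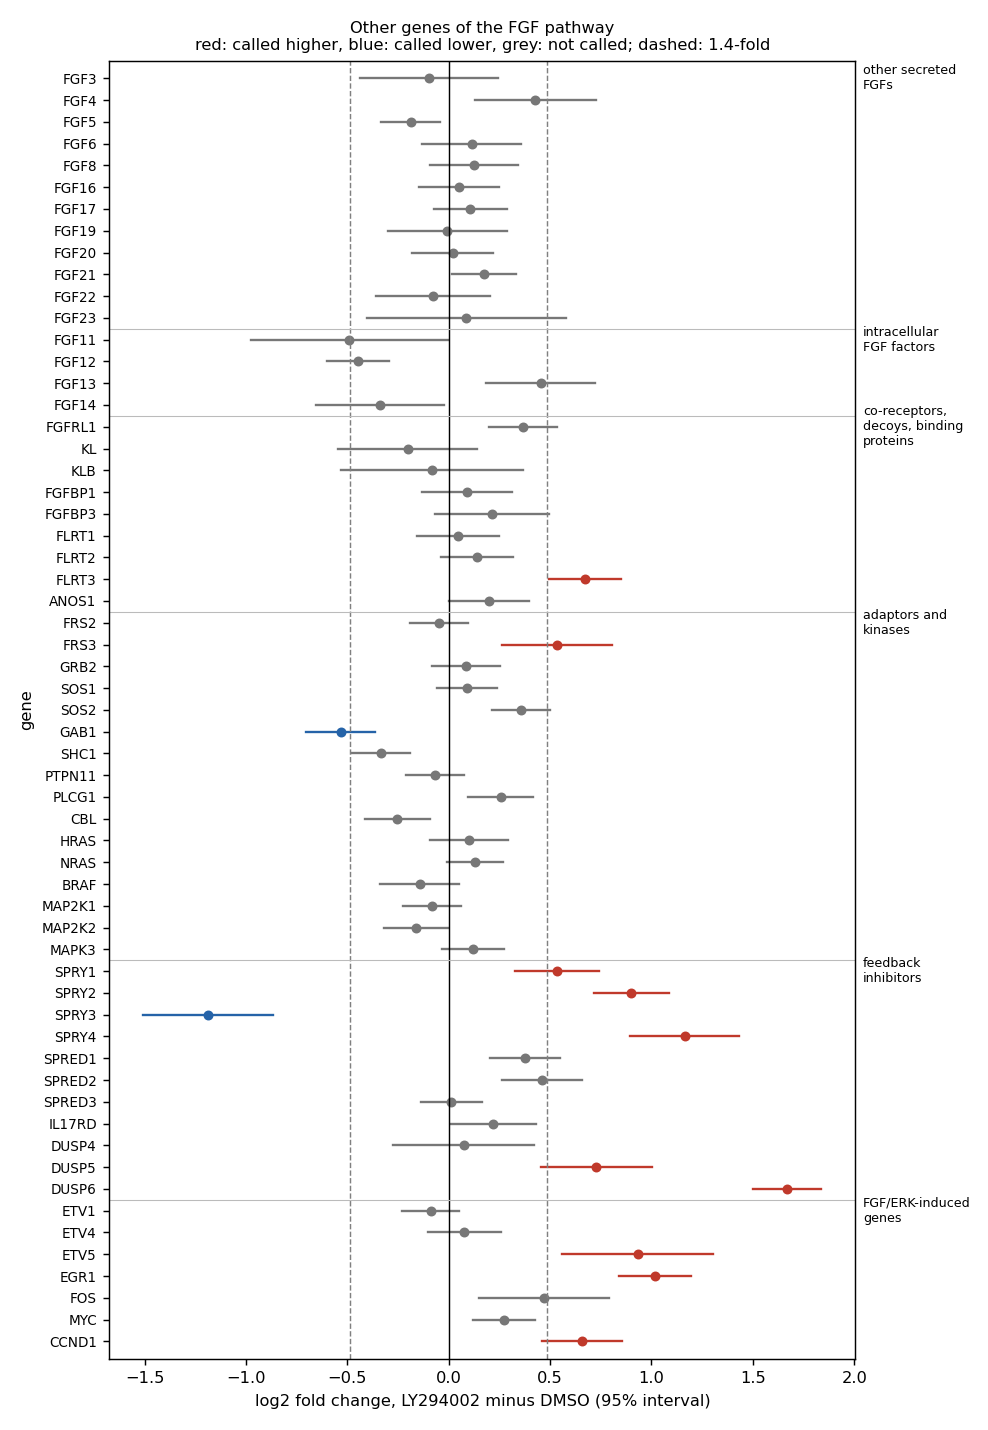
Log2 fold change of LY294002 minus DMSO (x axis) with 95% interval for the 59 measured pathway genes (y axis), grouped by list, with dashed lines at 1.4-fold. Red marks the 10 genes called higher and blue the 2 called lower, SPRY3 and GAB1. None of the secreted FGFs at the top is past both thresholds, though the intervals of FGF4, FGF5 and FGF21 do not include 0, and DUSP6 lies farthest right, at 1.67.

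**Figure D4:**
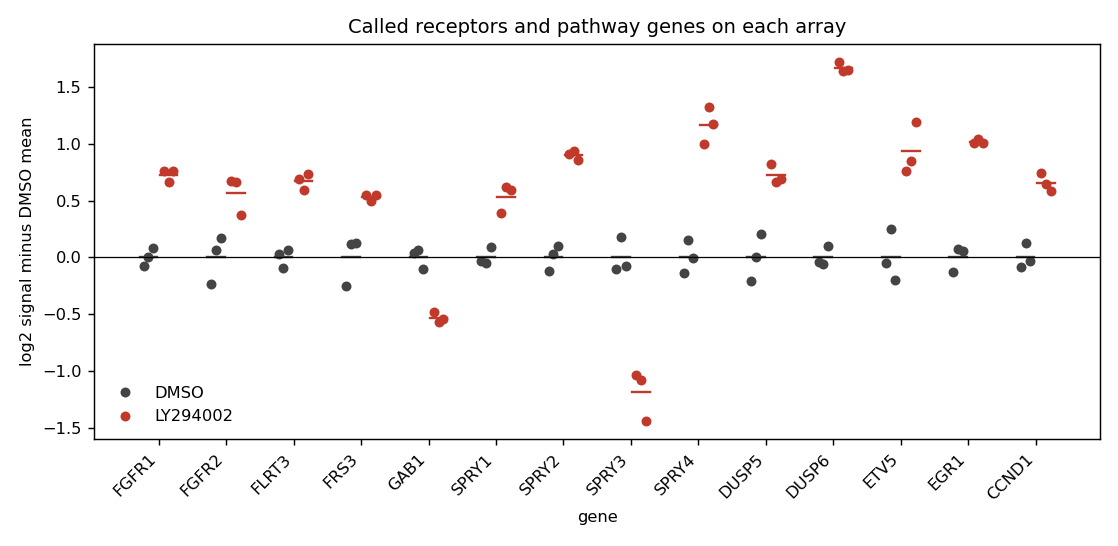
Log2 signal minus the DMSO mean of the gene (y axis) on each DMSO array (grey) and LY294002 array (red) for FGFR1, FGFR2 and the 12 called pathway genes (x axis), with bars at the group means. For each of the 14 genes the 3 LY294002 arrays lie on one side of the 3 DMSO arrays, which the thresholds favor. The narrowest gap is that of FGFR2.

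**Figure D5:**
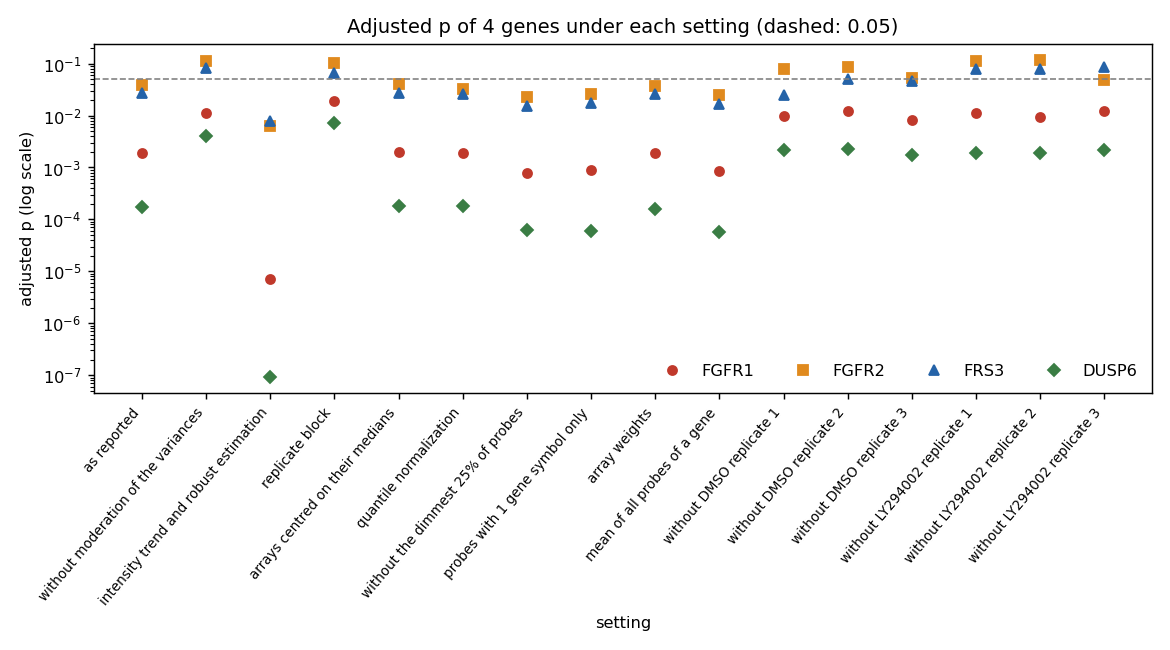
Adjusted p on a log scale (y axis) for FGFR1, FGFR2, FRS3 and DUSP6 in the fit as reported and under each other setting that changes the p (x axis), with a dashed line at 0.05. FGFR1 and DUSP6 stay under the line in every setting shown, while FGFR2 and FRS3 cross it in several.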

How the data were processed

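The authors deposited log2 signals made by RMA, which corrects background, normalizes between arrays and gives 1 value for each transcript cluster (here a probe). The methods name the Transcriptome Analysis Console. The RMA version and the genome build are not given in the sources used here. Values are rounded to 2 decimals. Of 24415 probes 18457 carry 1 symbol, 688 several and 5270 none. Gene IDs of 17996 matched RefSeq (ARS-UCD2.0), used for names only. For genes with several probes the brightest was counted.

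LY294002 was compared with DMSO on all 6 arrays with limma 3.58.1 (lmFit, eBayes) in R 4.3.3, without covariates, with Benjamini-Hochberg adjustment over all probes. Intervals of 95% are per probe and not adjusted. The fit was tested on simulated arrays. The genes and lists were chosen with earlier results of these data known. Named were all ligand and receptor probes, every called gene of the lists, up to 3 further genes a list with the lowest adjusted p, and some relatives chosen after their values were seen. Alternatives were another variance model, replicate block, scaling, filter, weights, threshold or probe rule, and leaving out each array. No sequences were used here. The number of arrays limits the precision.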

Additional observations from a re-analysis of the deposited data

Results flagged for a closer look

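One signal lay on a probe that no comparison used. Probe 12840420 lists FGF1 together with the histone genes H2BC21 and H2BC8 and was therefore not assigned to FGF1. It read 7.56, 7.74 and 7.71 in DMSO and 8.43, 8.43 and 8.45 in LY294002, a log2 change of 0.77 (SE 0.07, adjusted p = 0.0016), while the probe of FGF1 alone had one of -0.12 (adjusted p = 0.49). Which of the listed transcripts the probe measured was not tested.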

How the results depend on the processing

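The ligand count stayed at 0 under every alternative run. The receptor count of 2 went to 1 without moderation of the variances and with the replicate block, to 0 at a fold change of at least 2, and ranged from 1 to 2 when single arrays were left out. Where the count fell, FGFR2 dropped out, and FGFR1 too at the higher fold change. Same-numbered arrays did not deviate together (r = -0.0437, -0.0214 and -0.0274), so the numbers are not taken as pairs. With the replicate block the pathway count of 12 was 10, with FRS3 and ETV5 (adjusted p = 0.0662 and 0.0506) not called, and FGFR2 had an adjusted p of 0.104. Without a fold threshold the pathway count was 20, and at a fold change of at least 2 it was 4. Among uncalled ligands, the sign of FGF10 turned without DMSO replicate 3 (0.0917, range over arrays left out -0.31 to 0.0917) and that of FGF18 without DMSO replicate 1 (0.0267) or LY294002 replicate 2 (0.00167), in a range of -0.12 to 0.0267. Leaving out single arrays also moved the uncalled log2 changes of FGF9 (0.16 to 0.50) and FGF2 (0.13 to 0.35) by over 1.5 times, with no change of sign. The same held for FGF1 (-0.20 to -0.04), FGF7 (0.07 to 0.20), FGFR3 (0.03 to 0.16) and FGFR4 (-0.075 to -0.025). Median centring and quantile normalization changed no call of a ligand, a receptor or a called pathway gene. Signal near background limits FGF1, FGF7 and FGF10. FGF9, FGF18, FGFR3 and FGFR4 also lay below the median probe, and a limit by background was not measured for them. Background correction was not varied.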
